A study of Mus musculus with 6 samples.

Results

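Voltage-gated ion channel families were taken as all genes of the deposited count table whose symbol begins with Kcn (potassium channels), with Scn and a digit (sodium channels) or with Cacn (calcium channels), leaving out the non-coding RNA Kcnq1ot1. The rule found 134 of the 22272 distinct symbols, 94 of them potassium, 14 sodium and 26 calcium channel genes. The RNA came from C2C12, an established line of mouse myoblasts (dividing precursors of muscle fibres), in 2 groups of 3 libraries taken undifferentiated at day 0. The control group, labelled wild type, carried green fluorescent protein (GFP), and the other overexpressed ChREBP-beta, the short and highly active form of a sugar-responsive transcription factor encoded by Mlxipl. Neither the way the genes were introduced nor whether replicates were separate cultures is stated in the labels, so the p-values reflect only library-to-library spread, which may be technical. Library totals lay between 17600221 and 19163800 counts. Mlxipl stood at 0.576, 0.719 and 0.501 CPM (counts scaled by library size and by TMM factors, which balance the bulk of genes between libraries) in the GFP libraries and at 222, 215 and 220 CPM in the ChREBP-beta libraries.

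Voltage-gated channels open a pore for potassium, sodium or calcium when the membrane potential shifts. A pore-forming subunit carries the voltage sensor, and accessory subunits set its gating and how much of it reaches the surface. In muscle, sodium channels carry the action potential, potassium channels and inward rectifiers set and restore the resting potential, and the calcium channel of the transverse tubule couples excitation to contraction. The symbol rule is wider than its name: it also takes in inward rectifiers (Kcnj), leak channels (Kcnk) and channels opened by calcium or sodium inside the cell (Kcnn, Kcnt), which are not opened mainly by voltage, as well as gamma subunit genes (Cacng) that act on glutamate receptors.

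Most channel genes were hardly read in these cells. Of the 134 genes, 33 had no count in any library, 64 had some counts but too few to test, and 37 passed the filter on low counts. The tested genes were 25 potassium, 2 sodium and 10 calcium channel genes. Among them 13 rose and 17 fell with ChREBP-beta and 7 were not called (edgeR quasi-likelihood test, adjusted p under 0.05 over all 12166 genes tested). That is 81.1% of the tested channel genes, against 58.7% of all tested genes, of which 29.5% were called higher and 29.3% lower. The calls were large in size: 23 of the 30 were at least 2-fold (9 higher, 14 lower), or 62.2% of the tested channel genes against 11.5% of all tested genes (4.06% higher, 7.42% lower).

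The level of the genes bears on that count, because genes with few counts are called mainly when they differ much. Of all tested genes with a mean under 2 CPM, 38.7% were called at 2-fold or more, of those from 2 to 10 CPM 22.2%, and of those above 10 CPM 5.27%. The channel genes had 9 of 14, 11 of 14 and 3 of 9 in the same ranges. The filter adds to this: 7 tested channel genes (Cacna1c, Kcnh1 and Kcnj8, high with ChREBP-beta, and Cacna1g, Kcnab1 and Kcnj16 among those high with GFP) reached its cutoff of 0.549 CPM in every library of 1 group and in none of the other, so that they could hardly have been tested without differing. Of the 19 channel genes above the cutoff in all 6 libraries, 15 were called (7 higher, 8 lower), 8 of them at 2-fold or more. The share of all tested genes under the same condition was not computed. A further 11 tested channel genes lay in between, reaching the cutoff in some libraries. The groups did not overlap for 31 of the 37 tested channel genes, against 63.2% of all tested genes.

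**Figure D1:**
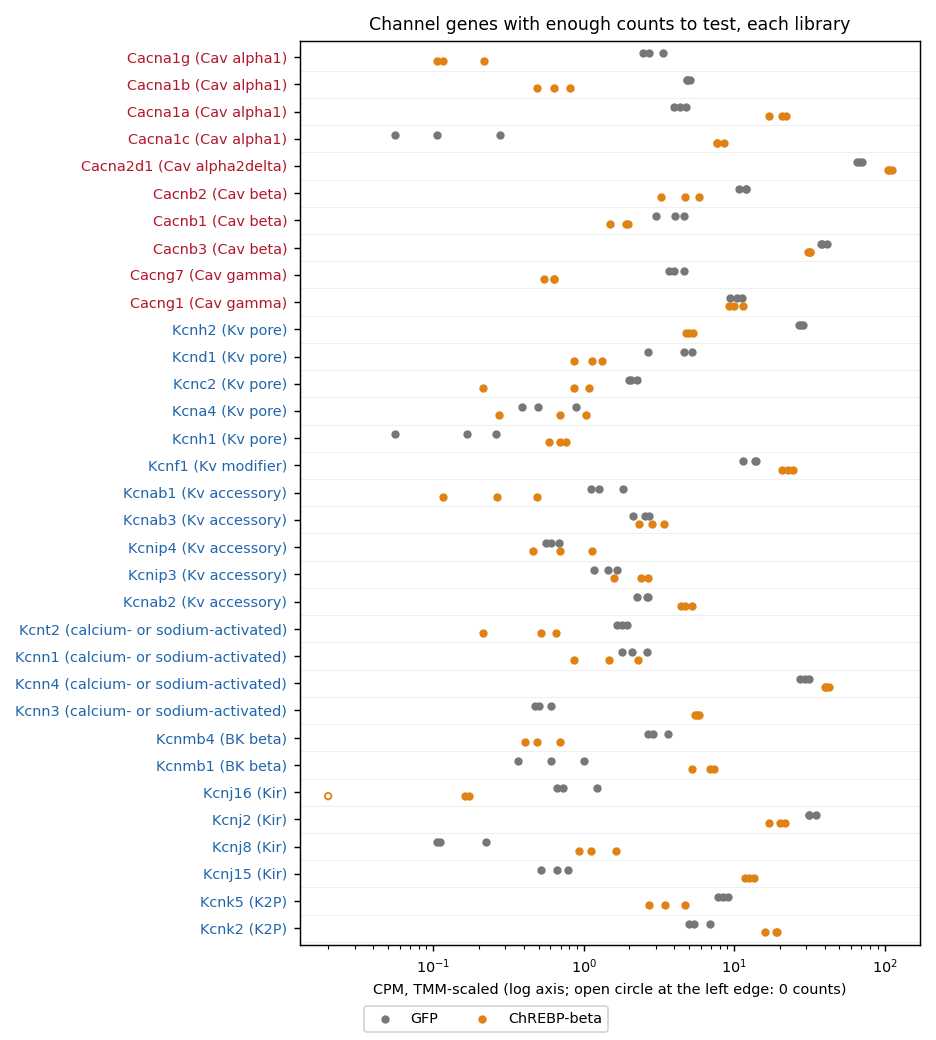
Level of 33 of the tested channel genes in each library, as TMM-scaled CPM on a log axis, with GFP libraries in grey and ChREBP-beta libraries in orange; gene names are red for calcium and blue for potassium channels. The 3 orange points lie clear of the 3 grey points for 27 genes, to the right for instance at Cacna1c and Kcnj15 and to the left at Kcnh2 and Cacna1b, while those of Cacng1 overlap.

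Summed levels are given for each ion class; a difference between classes was not tested. Over all 94 genes, potassium channel transcripts were at 148 ± 5.51 CPM (SD, n = 3) with GFP and 158 ± 3.13 CPM (SD, n = 3) with ChREBP-beta. The calcium channel sum was 151 ± 3.30 and 186 ± 6.06 CPM, and the small sodium channel sum 6.96 ± 0.858 and 13.1 ± 1.12 CPM (SD, n = 3). With TMM scaling, all 3 sums were higher in each ChREBP-beta library than in each GFP library. For potassium the gap was narrow, from 153 CPM in GFP replicate 2 to 155 CPM in ChREBP-beta replicate 1. By gene, potassium channels had 9 members higher, 10 lower and 6 not called, calcium channels 3 higher, 6 lower and 1 not called, and sodium channels 1 higher and 1 lower. The share called was 76.0% for potassium and 90.0% for calcium channel genes, against 58.7% of all tested genes. It includes the genes that reached the filter's cutoff in 1 group alone. The median log2 fold change was 0.21 for potassium and -0.71 for calcium channel genes, against 0.00 for all tested genes. The median size of the change regardless of sign was 1.64 and 1.76, against 0.23 for all tested genes.

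**Figure D2:**
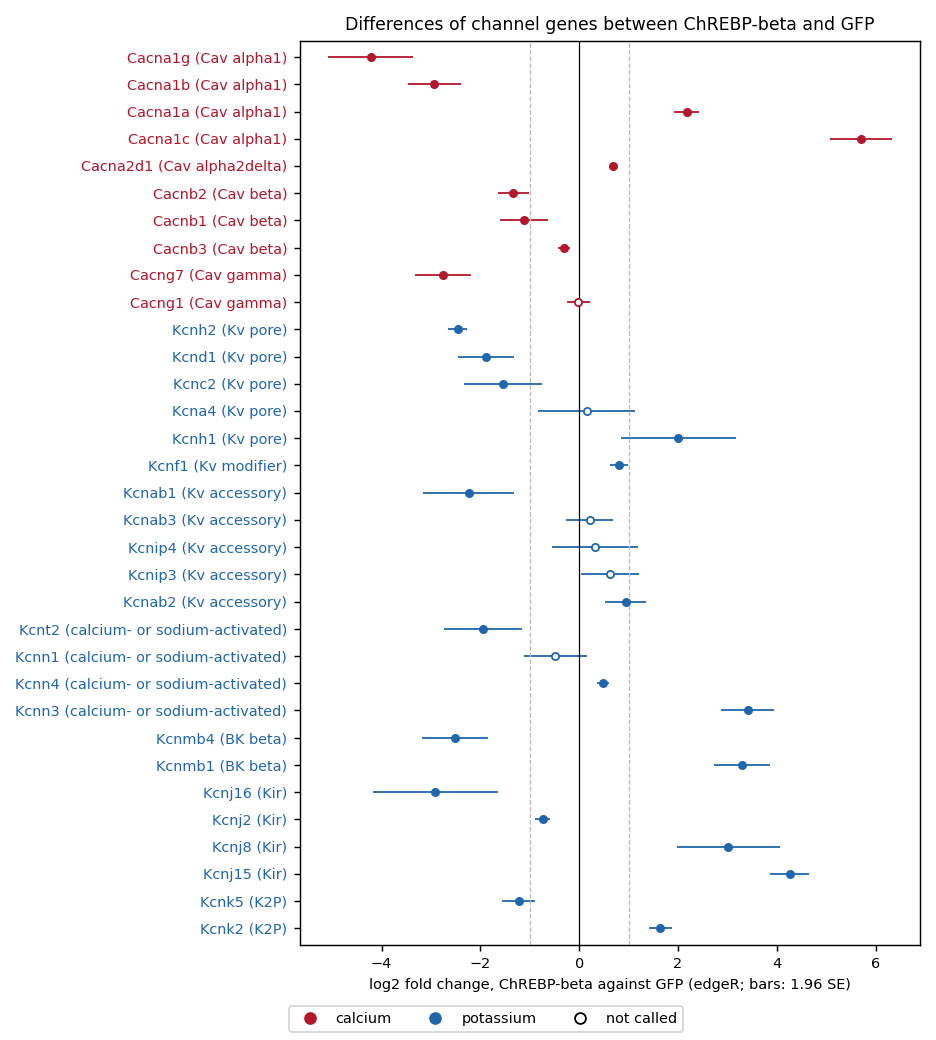
Log2 fold change of the same 33 channel genes with ChREBP-beta against GFP, with bars of 1.96 standard errors; filled points were called at an adjusted p under 0.05, and dashed lines mark a 2-fold change. Within the calcium channel pores, the inward rectifiers and the BK beta subunits the points lie on both sides of 0, from -4.22 for Cacna1g to 5.71 for Cacna1c.

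The 4 tested pore-forming calcium channel genes went both ways, 2 higher and 2 lower. Over all tested genes 29.5% were called higher and 29.3% lower. Cacna1c and Cacna1g reached the filter's cutoff in 1 group alone, so that they could hardly have been tested without differing. Cacna1a encodes the P/Q-type pore, which drives transmitter release at nerve endings. It was at 4.34, 3.98 and 4.79 CPM in the GFP libraries and at 20.9, 16.9 and 22.0 CPM in the ChREBP-beta libraries. The groups lay far apart, with a rise of 4.55-fold (log2 fold change 2.18, SE 0.13, edgeR adjusted p = 1.62e-13). Cacna1c, the L-type pore of heart and smooth muscle, was nearly silent in the GFP libraries at 0.105, 0.0553 and 0.279 CPM and reached 8.54, 7.65 and 7.69 CPM with ChREBP-beta, from 8 to 434 counts over the group (52.4-fold, edgeR adjusted p = 1.37e-13). Cacna1b, the N-type pore of neurons, went the other way, with 4.87, 4.87 and 5.07 CPM in GFP and 0.490, 0.638 and 0.809 CPM in ChREBP-beta libraries (7.60-fold lower, edgeR adjusted p = 1.82e-09). Cacna1g, a T-type pore that opens at small depolarisations, was at 2.46, 3.37 and 2.73 CPM with GFP and at 0.218, 0.106 and 0.116 CPM with ChREBP-beta, 18.6-fold lower (edgeR adjusted p = 1.02e-08).

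Scaled by exon length so that genes can be set beside each other, these 4 pores made up nearly all of the alpha-1 transcripts. Cacna1b was 39.5% ± 0.980 of the summed CPM per kilobase of exon in GFP libraries, ahead of Cacna1a at 30.4% ± 2.22 and Cacna1g at 22.4% ± 3.65 (SD, n = 3). In ChREBP-beta libraries Cacna1a was 78.0% ± 1.80 and Cacna1c 16.9% ± 1.82, with Cacna1b at 2.92% ± 0.708 (SD, n = 3). The sum itself was 1.26 ± 0.0558 and 2.23 ± 0.256 CPM per kilobase. Cacna1s, the L-type pore of skeletal muscle that triggers contraction, was not among them: it had 3, 0 and 7 counts in the GFP libraries and none in the ChREBP-beta libraries, too few to test. Cacna1d, another L-type pore, had 13, 10 and 5 counts against 3, 1 and 0, and was not tested either.

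Among the accessory calcium channel genes, Cacna2d1, the alpha-2-delta subunit that raises the number of channels at the surface, was the most abundant channel transcript by CPM. It was at 67.6, 70.3 and 65.3 CPM in GFP and at 112, 105 and 107 CPM in ChREBP-beta libraries, a rise of 1.60-fold (SE of the log2 fold change 0.042, edgeR adjusted p = 7.43e-13). All 3 tested beta subunit genes, whose products bind the pore from inside and bring it to the membrane, fell. Over all tested genes 29.3% were called lower and 58.7% either way. Cacnb2 was at 11.9, 12 and 10.8 CPM with GFP and at 3.26, 5.85 and 4.68 CPM with ChREBP-beta (2.51-fold lower, edgeR adjusted p = 8.05e-08). Cacnb1, the beta subunit of skeletal muscle, was at 3.03, 4.65 and 4.01 CPM and at 1.96, 1.49 and 1.91 CPM (2.18-fold lower, adjusted p = 4.42e-04). Cacnb3, the most abundant beta gene per length, was 1.23-fold lower (39.0 ± 2.04 against 31.6 ± 0.556 CPM; SD, n = 3; adjusted p = 1.68e-04). Its log2 fold change of -0.3 was near the median size of 0.23 for all tested genes.

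Of the gamma genes, Cacng7 and Cacng1 were tested. Cacng7, whose product regulates AMPA-type glutamate receptors, was at 3.71, 3.98 and 4.62 CPM in GFP libraries and at 0.544, 0.638 and 0.636 CPM in ChREBP-beta libraries, 6.71-fold lower (edgeR adjusted p = 1.41e-08). Cacng1, the gamma subunit of the skeletal muscle calcium channel, was at 10.5, 11.2 and 9.41 CPM and at 11.5, 9.99 and 9.25 CPM, with overlapping groups and a log2 fold change of -0.02 (SE 0.12, interval of 1.96 SE from -0.24 to 0.21, edgeR adjusted p = 0.910). Per kilobase of exon Cacng1 ranked second among the tested channel genes in both groups, while the pore it assembles with, Cacna1s, was close to absent. Cacng6, the other muscle gamma gene, had 7, 8 and 7 counts with GFP and 3, 1 and 1 with ChREBP-beta, with no overlap but too few to test.

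Sodium channels came down to 2 tested genes of 14, 1 called higher and 1 called lower. Scn4a, the pore of adult skeletal muscle, had 1 count over all 6 libraries. Scn7a, Scn3b and Scn2a also had too few counts to be tested. Scn7a had 1, 10 and 8 counts in the GFP and 10, 8 and 2 in the ChREBP-beta libraries.

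Of the 30 voltage-gated potassium pore genes 7 were tested, 4 of which fell, 1 rose and 2 were not called. Over all tested genes 29.3% were called lower and 29.5% higher. Kcnh1, which rose, and 1 of the genes that fell reached the filter's cutoff in 1 group alone. These could hardly have been tested without differing. The summed level of the 30 genes was 7.63 ± 0.318 CPM per kilobase with GFP and 1.84 ± 0.0272 with ChREBP-beta (SD, n = 3). Kcnh2, the ether-a-go-go-related pore that repolarises heart cells, accounted for most of that. It was at 26.9, 28.7 and 27.6 CPM in GFP and at 5, 5.32 and 4.74 CPM in ChREBP-beta libraries, 5.51-fold lower (log2 fold change -2.46, SE 0.097, edgeR adjusted p = 9.85e-17), the smallest p among the channel genes. Its share of the Kv pore transcripts per kilobase was 75.1% ± 2.25 with GFP and 56.4% ± 3.85 with ChREBP-beta (SD, n = 3).

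The other Kv pores were less abundant. Kcnd1, an A-type pore that inactivates quickly, was at 4.60, 5.20 and 2.67 CPM with GFP and at 1.14, 1.33 and 0.867 CPM with ChREBP-beta (3.71-fold lower, adjusted p = 5.08e-06). Kcnc2, a pore of fast-firing neurons, was at 1.99, 2.27 and 2.06 against 1.09, 0.213 and 0.867 CPM (2.91-fold lower, adjusted p = 0.00175). Kcnh1, a paralog of Kcnh2 known to hyperpolarise myoblasts before they fuse, was the member that rose, from 0.262, 0.0553 and 0.167 to 0.762, 0.585 and 0.694 CPM (4.04-fold, adjusted p = 0.00541, on 9 and 37 counts). It was not called with GFP replicate 3 as the only control (adjusted p = 0.0886). Kcna4, another A-type pore, was at 0.889, 0.498 and 0.390 CPM in GFP and at 0.272, 0.691 and 1.04 CPM in ChREBP-beta libraries, so that the groups overlapped, and it was not called (log2 fold change 0.15, SE 0.50, edgeR adjusted p = 0.811).

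Subunits that modify Kv channels moved both ways. Kcnf1, a silent subunit that forms no channel alone but joins other Kv pores, was at 13.9, 13.7 and 11.4 CPM with GFP and at 20.9, 24.7 and 22.7 CPM with ChREBP-beta, a rise of 1.75-fold (edgeR adjusted p = 8.05e-08). Kcnab2, an accessory beta subunit, rose 1.91-fold (2.51 ± 0.224 CPM with GFP, 4.80 ± 0.431 with ChREBP-beta), while its paralog Kcnab1 fell 4.72-fold (1.41 ± 0.377 and 0.290 ± 0.188 CPM; SD, n = 3; edgeR adjusted p = 3.96e-04 and 2.56e-04). Kcnab1 reached the filter's cutoff in the GFP libraries alone, so that it could hardly have been tested without differing. Kcnab3, Kcnip3 and Kcnip4 were not called, with log2 fold changes of 0.21, 0.63 and 0.32 (SE 0.24, 0.30 and 0.44; adjusted p = 0.470, 0.0813 and 0.560).

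Potassium pores opened by calcium or sodium summed to 6.53 ± 0.446 CPM per kilobase with GFP and to 9 ± 0.188 with ChREBP-beta (SD, n = 3). Kcnn4, the intermediate-conductance pore that sets the membrane potential of many dividing cells, was at 31.2, 29.3 and 27.5 CPM with GFP and at 40.1, 40.6 and 42.5 CPM with ChREBP-beta (1.40-fold higher, SE of the log2 fold change 0.063, edgeR adjusted p = 4.17e-07). Kcnn3, a small-conductance pore, was at 0.471, 0.609 and 0.501 CPM and at 5.49, 5.63 and 5.84 CPM, a rise of 10.6-fold (adjusted p = 8.15e-11) on a base near the filter's cutoff. Per kilobase Kcnn4 was 87.9% ± 0.633 of this group with GFP and 89.2% ± 1.48 with ChREBP-beta (SD, n = 3). Kcnn1 was not called (log2 fold change -0.48, SE 0.33, adjusted p = 0.208), and Kcnt2, a pore opened by sodium, fell 3.86-fold (1.79 ± 0.138 and 0.462 ± 0.226 CPM; SD, n = 3; adjusted p = 1.94e-04).

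The beta subunits of the large-conductance BK channel exchanged their order. Kcnmb1, the beta subunit of smooth muscle that makes the channel more sensitive to calcium, was at 0.366, 0.609 and 1 CPM in GFP and at 6.85, 5.21 and 7.28 CPM in ChREBP-beta libraries, 9.76-fold higher (edgeR adjusted p = 4.49e-10). Kcnmb4, the beta subunit of neurons, was at 2.88, 3.60 and 2.67 and at 0.490, 0.691 and 0.405 CPM, 5.68-fold lower (adjusted p = 6.67e-07). Kcnmb4 made up 74.7% ± 6.04 of the BK beta transcripts per kilobase with GFP and Kcnmb1 83.4% ± 5.37 with ChREBP-beta (SD, n = 3). The pore that both attach to, Kcnma1, had 1 count over the 3 GFP libraries and 1 over the 3 ChREBP-beta libraries.

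Inward rectifiers, which pass potassium mainly into the cell and hold the resting potential, kept a similar sum while their make-up differed. The sum was 6.68 ± 0.371 CPM per kilobase with GFP and 6.47 ± 0.297 with ChREBP-beta (SD, n = 3). Kcnj2, the main resting potassium conductance of muscle, was at 31.6, 35.0 and 31.6 CPM and at 17.0, 21.6 and 20.1 CPM, 1.67-fold lower (log2 fold change -0.74, SE 0.081, edgeR adjusted p = 2.45e-08). Kcnj15, an inward rectifier best known from epithelia, was at 0.523, 0.664 and 0.780 CPM and at 11.8, 12.5 and 13.6 CPM, 19.2-fold higher (log2 fold change 4.26, SE 0.20, adjusted p = 2.10e-15). It was also the 1 channel gene with a fractional count, in a single ChREBP-beta library. By share per kilobase, Kcnj2 was 90.0% ± 2.08 with GFP and 55.4% ± 4.17 with ChREBP-beta, and Kcnj15 1.55% ± 0.286 and 31.0% ± 1.86 (SD, n = 3).

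Of the rarer rectifiers, Kcnj8 and Kcnj16 were tested. Each reached the filter's cutoff in 1 group alone, so that they could hardly have been tested without differing. Kcnj8, the pore of the ATP-sensitive channel of vessels, was at 0.105, 0.111 and 0.223 CPM with GFP and at 1.63, 1.12 and 0.925 CPM with ChREBP-beta (8.12-fold higher, edgeR adjusted p = 3.22e-05, on 8 and 67 counts). Kcnj16, which pairs with other rectifier subunits, was at 0.732, 0.664 and 1.23 CPM and at 0.163, 0 and 0.173 CPM (7.50-fold lower, adjusted p = 5.01e-04, on 48 and 6 counts). Kcnj11, the muscle pore of the ATP-sensitive channel, had no count in any library. Kcnj12, another muscle rectifier, had 5, 3 and 7 against 18, 10 and 6 counts and was not tested.

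Among leak channels, which keep a background potassium current, 2 of 14 genes were tested and they moved apart. Kcnk2, opened by stretch and lipids, was at 6.91, 5.37 and 5.01 CPM with GFP and at 19.1, 16.1 and 19.0 CPM with ChREBP-beta, 3.12-fold higher (edgeR adjusted p = 2.65e-11). Kcnk5, which responds to pH, was at 7.85, 8.41 and 9.14 and at 4.68, 3.46 and 2.72 CPM, 2.33-fold lower (adjusted p = 1.59e-06). Kcnk5 was 63.7% ± 2.79 of the leak channel transcripts per kilobase with GFP and Kcnk2 72.9% ± 4.07 with ChREBP-beta (SD, n = 3).

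**Figure D3:**
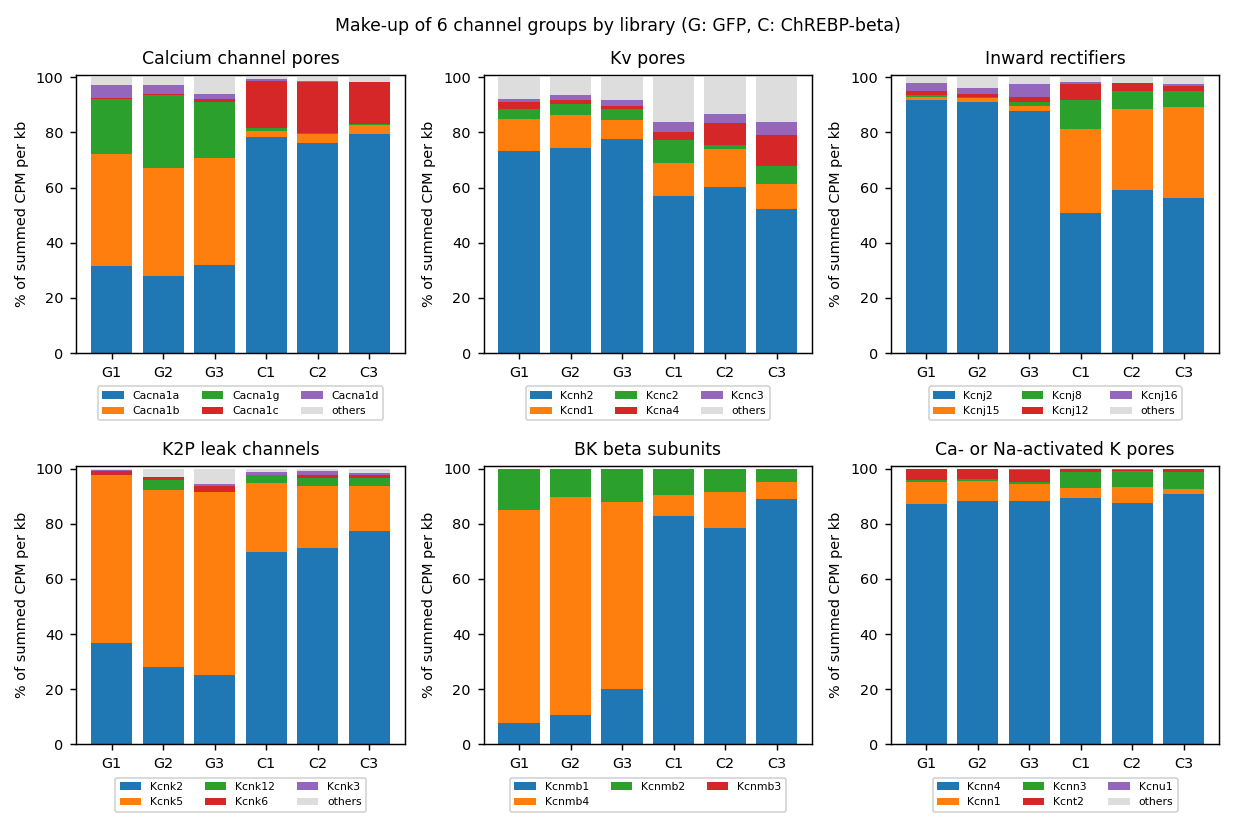
Share of each gene in the summed CPM per kilobase of exon of its group, for 6 channel groups, in each library (G1 to G3 GFP, C1 to C3 ChREBP-beta); bars add to 100%, and grey holds the genes beyond the 5 most abundant. Cacna1b and Cacna1g give way to Cacna1a and Cacna1c among calcium channel pores, Kcnk5 to Kcnk2 and Kcnmb4 to Kcnmb1, while Kcnn4 is between 87.1% and 90.7% in all 6 libraries.

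By level per kilobase, the order of the channel genes shifted between the groups. With GFP, Cacnb3 led at 9.72 CPM per kilobase, then Cacng1 (8.30), Kcnj2 (6.01), Kcnn4 (5.74), Kcnh2 (5.73) and Cacna2d1 (5.46). Kcnj2, Kcnn4 and Kcnh2 did not differ beyond their spread over libraries. With ChREBP-beta, Cacna2d1 led at 8.72, then Cacng1 (8.20), Kcnn4 (8.03), Cacnb3 (7.89) and Kcnf1 (4.75), where neighbours among the first 4 did not differ beyond their spread. Kcnh2 went from rank 5 to rank 14 of the 37 tested genes and Kcnj15 from rank 32 to rank 8.

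The ChREBP-Mlx pair binds E-boxes, of which CACGTG is the core form, and its carbohydrate response element holds a pair of E-box-like sequences 5 bases apart. Promoter windows of 300 bases (250 before to 50 after a gene's start; RefSeq, GRCm38.p6) were matched to 28 of the 37 tested channel genes. CACGTG, which reads the same on both strands, occurred in windows of 4 of them, all called: Kcnn4, which rose, and Kcnj2, Kcnk5 and Kcnab1, which fell. That is 5 of 50 channel gene windows, against 7.15% of all 32851 windows. Being called does not set these 4 genes apart, since 24 of the 28 matched genes were called. The paired forms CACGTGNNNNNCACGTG and CACGNNNNNNNNNCGTG, each the same on both strands (the first holds the single E-box), occurred in no channel gene window and in 0 and 92 of all windows. A match is a description of letters and not a binding site. The 250 bases before the start are shown for the more abundant members, Kcnj2 and Kcnn4, and for a Kcnab1 start, on the plus strand of chr11:111065914-111066163, chr7:24370013-24370262 and chr3:65187853-65188102, with the E-box in capitals.
Kcnj2: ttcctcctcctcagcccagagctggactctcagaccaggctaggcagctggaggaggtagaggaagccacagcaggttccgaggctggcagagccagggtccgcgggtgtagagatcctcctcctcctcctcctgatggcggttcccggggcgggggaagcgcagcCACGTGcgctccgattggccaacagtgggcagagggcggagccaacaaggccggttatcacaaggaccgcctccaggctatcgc
Kcnn4: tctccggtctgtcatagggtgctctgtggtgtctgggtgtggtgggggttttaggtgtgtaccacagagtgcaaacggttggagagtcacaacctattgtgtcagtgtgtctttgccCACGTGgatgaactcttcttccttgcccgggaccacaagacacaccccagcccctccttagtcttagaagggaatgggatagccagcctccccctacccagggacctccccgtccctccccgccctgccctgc
Kcnab1: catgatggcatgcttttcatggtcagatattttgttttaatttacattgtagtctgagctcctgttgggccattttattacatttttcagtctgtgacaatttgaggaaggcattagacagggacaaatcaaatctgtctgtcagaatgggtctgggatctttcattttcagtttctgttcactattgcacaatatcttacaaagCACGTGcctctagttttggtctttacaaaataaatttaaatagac
In Kcnk5 the E-box begins at base 277 of the window, after the start. Of the genes that rose most, Cacna1c, Kcnj15, Kcnn3 and Kcnmb1 had no CACGTG in their windows, which says only that these letters are not there.

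Among genes whose products assemble with these channels or control them, calls went in both directions. Of 27 listed partners 18 were tested, 6 rose, 8 fell and 4 were not called (median log2 fold change -0.20), where 29.5% of all tested genes were called higher and 29.3% lower. Ank3 and Ank2, ankyrins that anchor sodium and other channels to the cytoskeleton, fell from 47.4 to 15.6 and from 10.2 to 3.95 CPM (3.03-fold and 2.56-fold, edgeR adjusted p = 1.18e-15 and 1.91e-08). Amigo1, an accessory subunit of Kv channels, rose from 4.32 to 11.8 CPM (2.74-fold, adjusted p = 8.44e-09). Chosen after their values were seen, Abcc9, the regulatory subunit that pairs with Kcnj8, rose from 0.110 to 0.947 CPM (8.28-fold, adjusted p = 1.24e-04) and Dpp6, a partner of Kcnd pores, from 0.110 to 1.09 CPM (9.43-fold, adjusted p = 3.17e-05). Both were above the filter's cutoff of 0.549 CPM in the ChREBP-beta libraries alone, so that they could hardly have been tested without differing.

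Genes of excitation-contraction coupling, which act with the muscle calcium channel at the store membrane, were mostly lower: of 11 tested, 9 fell, 1 rose and 1 was not called, with a median of -0.68, where 29.3% of all tested genes were called lower and 58.7% either way. Ryr3, a calcium release channel of the store, fell from 7.08 to 0.0886 CPM (71.9-fold, edgeR adjusted p = 5.75e-12). Jph1, which ties the store to the surface membrane, fell 2.03-fold, Srl, a protein of the store lumen, 2.89-fold and Bin1, which shapes transverse tubules, 1.29-fold (adjusted p = 6.50e-09, 2.15e-07 and 3.67e-09). Stac, an adaptor of L-type channels, was the member that rose, from 0.220 to 1 CPM (4.50-fold, adjusted p = 0.00121). Stac passed the filter on low counts through the ChREBP-beta libraries alone, and Ryr3, Trdn and Jsrp1 through the GFP libraries alone. These genes, counted above among those that rose or fell, could hardly have been tested without differing.

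**Figure D4:**
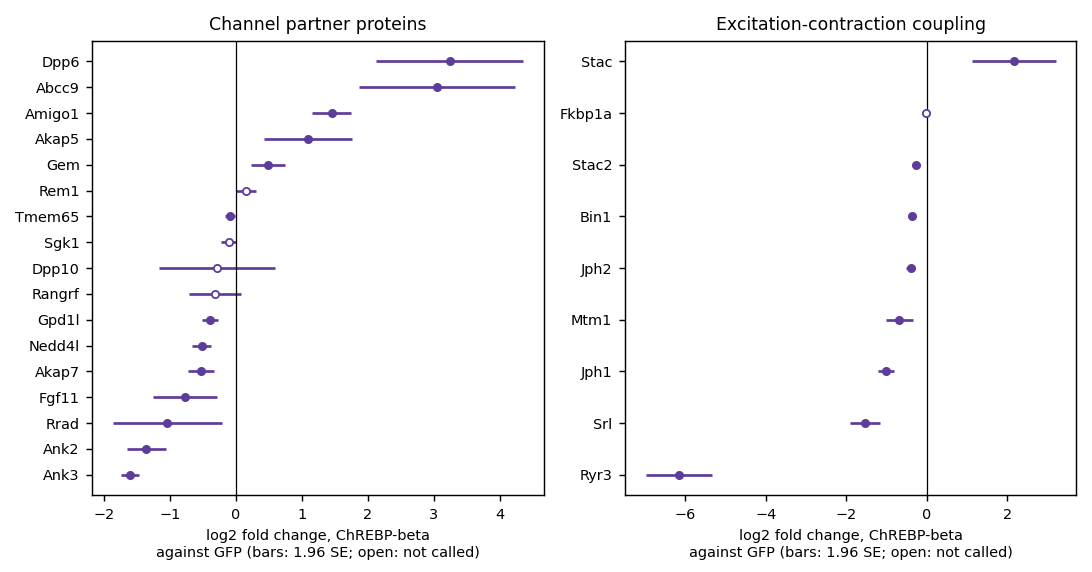
Log2 fold change with ChREBP-beta against GFP for 17 of the 18 tested channel partner genes (left) and excitation-contraction coupling genes (right), with bars of 1.96 standard errors and open points for genes not called; Trdn and Jsrp1, with at most 1 count in the ChREBP-beta group, are not drawn. On the left the points spread from Ank3 to Dpp6 on both sides of 0, and on the right all called genes but Stac lie below 0.

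The lists of other channels and of ion pumps held calls in both directions, beside 58.7% of all tested genes called. Of 26 tested other cation and chloride channel genes 7 rose, 6 fell and 13 were not called (median 0.08). Ano1, a calcium-activated chloride channel, rose 3.21-fold from 17.2 to 55.2 CPM and Piezo1, a stretch-activated channel, 1.36-fold, while Piezo2 fell 2.92-fold and the chloride transporter gene Clcn5 1.33-fold (edgeR adjusted p = 6.43e-16, 7.31e-11, 1.59e-06 and 3.00e-08). Of 14 tested pump and exchanger genes 8 rose, 5 fell and 1 was not called (median 0.21). The beta subunits of the sodium-potassium pump went apart, Atp1b3 rising 1.60-fold from 120 to 192 CPM and Atp1b1 falling 5.02-fold from 37.5 to 7.46 CPM, and the pump modulator Fxyd5 rose 1.84-fold (adjusted p = 1.37e-13, 2.66e-17 and 4.58e-14).

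Of the 22 listed channel genes known from skeletal muscle or myoblasts, all of them among the 134, 12 were tested. Among these, 7 rose, 4 fell and 1 was not called, with a median log2 fold change of 0.58. The other 10 had too few counts to test, among them Cacna1s, Scn4a, Kcnma1 and Kcnj11. Over all tested genes 58.7% were called, 29.5% higher and 29.3% lower. Cacna1c and Kcnh1 were among the tested muscle channel genes that reached the filter's cutoff in 1 group alone. Markers of cell types were read as well. All 6 myoblast markers fell, and their sum ran from 278 to 303 CPM with GFP and from 84.4 to 91.8 CPM with ChREBP-beta. Of 5 fibroblast markers 4 were tested, 2 rose and 2 fell, with the sum from 825 to 861 CPM and from 868 to 894 CPM. Of 4 smooth muscle markers 3 were tested, 2 fell and 1 was not called, with the sum from 140 to 151 CPM and from 136 to 137 CPM. No Schwann cell, endothelium or blood marker was called. Of 7 neuron markers, 4 were tested and fell, with the sum from 150 to 155 CPM and from 25.5 to 32.2 CPM, most of it Stmn2. Syt1 fell from 4.37 to 0.368 CPM (11.7-fold), Map2 from 6.87 to 1.65 CPM (4.14-fold) and Syp from 1.29 to 0.437 CPM (2.90-fold; edgeR adjusted p = 4.84e-10, 5.41e-09 and 0.00248). The 3 not tested were Rbfox3, at 0 in all libraries, Snap25, at most at 0.221 CPM, and Elavl4, at most at 0.223 CPM. Syt1, Syp and some of the myoblast markers were above the filter's cutoff of 0.549 CPM in the GFP libraries alone. Those genes could hardly have been tested without differing. The part of the marker changes in those of the channel genes was not tested.

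In bulk samples, fewer cells that express a gene and less RNA per cell cannot be told apart. Cardiomyocyte markers summed to at most 1.38 CPM in any library. Lung markers summed to between 0.419 and 126 CPM in the GFP and between 59.4 and 81.8 CPM in the ChREBP-beta libraries, and hepatocyte markers to between 0 and 21.2 and between 12.5 and 18.2 CPM. GFP replicate 1 was low in both and GFP replicate 2 in the hepatocyte markers. Endothelium markers summed to between 0.732 and 3.51 CPM in the GFP libraries, with GFP replicate 1 the lowest, and between 2.2 and 4.2 CPM with ChREBP-beta. GFP replicate 3 held lung and hepatocyte markers. It was also taken as the only control, in a fit that rests on a single GFP library. The exons of 13 tested channel genes overlap those of other annotated genes, in 12 cases only on the opposite strand, among them Cacna1a, Cacnb2, Kcnj15, Kcnk2 and Kcnmb4, and reads of such pairs cannot be told apart without the strand setting.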

How the data were processed

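The 6 libraries (3 GFP, 3 ChREBP-beta) were grouped by their titles. The authors deposited estimated counts per gene symbol, not normalized, of which 7.74% are not whole. TopHat2 2.0.0, Bowtie2 2.0.0.5 and fastp are named per the submitters' processing notes; the only build there is the chicken genome GRCg6a, though the table lists mouse symbols. No source used here states the counting tool, mouse build or strand setting. Rows of the 24 repeated symbols were summed and rounded. edgeR 4.0.16 (R 4.3.3) was run with filterByExpr (minimum count 10, minimum total 15), TMM and the quasi-likelihood test, two-sided, with Benjamini-Hochberg adjustment over 12166 genes; it was tested on simulated data. SE is the log2 fold change divided by the root of F. Exon lengths and positions are from GENCODE M21 (GRCm38) by symbol, for 134 of 134 members. A gene's length is that of all its annotated exons merged, not of the transcript expressed. Shares and ranks per kilobase therefore depend on the annotation. Counting intervals cover counting error only. Libraries of a group differed beyond sampling noise (chi-square per degree of freedom 2.17 to 3.98), so all were kept.

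The members and lists were chosen with earlier results of these data known. Named genes are, per ion class, the up to 10 called members with the largest fold among those with at least 0.5 CPM in the higher group and the 5 most abundant, tested muscle channel genes, Mlxipl, and the up to 4 called genes of each other list with the smallest p. Other members are named beyond that rule, having been chosen after their values were seen. Some genes that the rule picks are not reported here. Other settings tried were scaling by RLE, by upper quartile or by total counts alone, other filters, DESeq2 1.42.0, limma-voom (limma 3.58.1), the replicate number as a block, each library left out and, added after seeing the data, GFP replicate 3 as the only control.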

Additional observations from a re-analysis of the deposited data

How the results depend on the processing

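Of the 30 channel genes called, 28 were called in the same direction under every alternative other than the filter at a mean of 5 CPM; 2 were not, Kcnh1 among them. That filter left 13 channel genes, of which 12 were called: 7 higher and 5 lower, or 4 and 3 for potassium, 2 lower for calcium and 0 lower for sodium channels, with 5 of the muscle channel list and 6 of the coupling list called. It removes genes from the test, so fewer can be called. Of all 9959 genes that this filter left, 3098 were called higher and 3111 lower. Sodium channel genes called lower were 1 in the main test, 2 without a filter, 0 to 1 with a library left out, and 0 with GFP replicate 3 as the only control. With the replicate number as a block, the same 30 channel genes were called (13 higher, 17 lower); same-numbered libraries did not deviate together (correlations -0.0182, 0.00151 and -0.04), so the numbers were not taken as pairs. Levels under about 0.5 CPM rest on 10 or fewer counts per library, so that only large differences between them can be called.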
